A study of Mus musculus with 6 samples.

Results

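Costimulatory receptors deliver the signals that a CD4+ T cell needs, beside its antigen receptor, to divide and survive. CD28 binds CD80 and CD86 and acts early in priming, through kinases and PKC-theta, while the receptors of the TNF family recruit TRAF adaptors and switch on NF-kB, and most of them appear or rise on the cell surface after activation. The transcripts described here were those of 6 TNF receptors, *Tnfrsf4* (OX40), *Tnfrsf9* (CD137), *Tnfrsf18* (GITR), *Tnfrsf1b* (TNFR2), *Tnfrsf8* (CD30) and *Cd27*, and of *Cd28*. These 7 genes were taken by their symbols from a table of 24223 genes, and all 7 were among the 13607 genes with enough counts to be tested.

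Bulk RNA-Seq had been carried out on 2 biological replicates each of Naive, Th17 and Th1 cells of the mouse. Naive cells were non-activated CD4+ T cells taken with a CD4+CD62L+ kit, which keeps CD4+CD44- cells, from pooled lymph nodes and spleens of young C57BL/6 mice between the first and the second month of age. Th17 and Th1 cells were grown from such Naive cells and collected on the fifth day. Both cultures received antibodies to CD3 and CD28, or beads carrying them, and an antibody to IL-4. The Th1 culture also received IL-12 and IL-2, and the Th17 culture TGF-β, IL-6, IL-1β, IL-23 and an antibody to IFN-γ. Effects of activation through CD3 and CD28, of the cytokines and of time in culture therefore cannot be told apart in a comparison with Naive cells. The cultures differed in several cytokines and in the antibody to IFN-γ at once, so effects of these cannot be told apart in Th1 against Th17 cells. Which cultures had antibodies and which had beads was not stated.

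The 3 libraries numbered 1 held between 59973041 and 69080017 counts, and the 3 numbered 2 between 17742158 and 18608805, so that 3 counts, taken as the limit of detection, were worth 0.0440 to 0.190 CPM (counts scaled to an equal library total, with TMM factors for composition). Markers of CD4 T cells summed to between 3500 and 4790 CPM in every library, and none of the 8 was called different between any cell types by edgeR or DESeq2, with at most 1 in each direction at an unadjusted p under 0.05. All 4 Th1 markers were called higher in Th1 than in Naive cells and 4 of 5 Th17 markers higher in Th17 than in Naive cells. None of 9 markers of naive T cells was called by edgeR in any comparison. DESeq2 called 1 of them lower in Th17 than in Naive cells and 1 higher in Th1 than in either. At an unadjusted p under 0.05 in edgeR, 1 was lower in Th17 than in Naive cells. By the same measure, 2 were higher and 1 lower in Th1 than in Naive cells, and 4 were higher in Th1 than in Th17 cells. Markers of other cells were also present. The summed level of 9 neutrophil markers was 2790 to 2890 CPM in Th17 libraries, 189 to 311 CPM in Naive and 63.6 to 74.3 CPM in Th1. The sum did not follow most single markers in Th1 cells. Of the 9, edgeR called 5 higher and 2 lower in Th1 than in Naive cells, with a median log2 fold change of 3.07. The part of such cells, and of the erythroid transcripts of the Naive libraries (126 and 764 CPM against at most 2.09 CPM in the others), in the results below was not tested. In bulk RNA, fewer cells of a type cannot be told apart from less RNA per cell.

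Of the 7 receptors, 5 lie on mouse chromosome 4 and fall into a pair of neighbours and a further pair, with *Tnfrsf9* between them. In the mm10 build, *Tnfrsf1b* (chr4:145213463-145246870) and *Tnfrsf8* (chr4:145267137-145315164) are adjacent on the minus strand, 20266 bases apart. *Tnfrsf4* (chr4:156013843-156016612) and *Tnfrsf18* (chr4:156026164-156028895) are adjacent on the plus strand, 9551 bases apart. *Tnfrsf9* is at chr4:150914562-150946102 on the plus strand, *Cd27* at chr6:125232622-125237010 on the minus strand and *Cd28* at chr1:60716800-60773359 on the plus strand. Stretches upstream of the RefSeq start sites (GRCm38.p6, 5′ to 3′) of both pairs are shown. They were chosen because partners in the *Tnfrsf1b* and *Tnfrsf8* pair had different patterns, whereas *Tnfrsf4* and *Tnfrsf18* rose in the same culture. Each is the longest run outside annotated exons within the 250 bases before the start, so lengths and positions differ. The stretch spans bases -250 to -1 for *Tnfrsf8* and *Tnfrsf1b*, -84 to -1 for *Tnfrsf4* and -250 to -159 for *Tnfrsf18*. Capitals mark matches, on either strand, to AP-1 (TGANTCA), NF-kB (by its name) or NFAT (GGAAAA) motifs.
Tnfrsf8, chr4:145315165-145315414, minus strand: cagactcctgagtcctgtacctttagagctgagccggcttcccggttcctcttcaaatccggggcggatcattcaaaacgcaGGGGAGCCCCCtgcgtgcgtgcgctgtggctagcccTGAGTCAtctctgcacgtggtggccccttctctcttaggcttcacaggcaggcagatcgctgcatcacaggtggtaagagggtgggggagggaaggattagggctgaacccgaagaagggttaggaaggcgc
Tnfrsf1b, chr4:145246871-145247120, minus strand: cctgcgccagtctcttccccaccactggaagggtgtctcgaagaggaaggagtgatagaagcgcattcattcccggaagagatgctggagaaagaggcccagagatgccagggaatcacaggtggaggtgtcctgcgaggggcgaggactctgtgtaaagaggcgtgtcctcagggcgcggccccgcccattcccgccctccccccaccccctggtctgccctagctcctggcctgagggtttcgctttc
Tnfrsf4, chr4:156013611-156013694, plus strand: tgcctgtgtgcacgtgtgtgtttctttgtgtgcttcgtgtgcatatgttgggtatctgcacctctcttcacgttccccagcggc
Tnfrsf18, chr4:156026072-156026163, plus strand: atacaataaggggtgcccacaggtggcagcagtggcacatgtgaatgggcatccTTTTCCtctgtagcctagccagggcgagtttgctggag

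Within windows of 250 bases before to 50 after each start, the *Tnfrsf8* window held an AP-1 match starting at base -132 from the start site and a pair of overlapping NF-kB matches on its upstream side. The window of the downstream *Tnfrsf9* start also held an AP-1 match, at base -15, and an overlapping pair of NF-kB matches. The upstream *Tnfrsf9* start, *Tnfrsf18* and *Cd27* had an NFAT match each, and the windows of *Tnfrsf1b* and *Tnfrsf4* had no match to these letters or to a T-box motif (TCACACC). Among 32851 promoter windows of the same length, 7.81% held the AP-1 motif, 8.46% the NF-kB motif, 23.4% the NFAT motif and 3.98% the T-box motif. The matches are descriptions of these letters only.

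**Figure D1:**
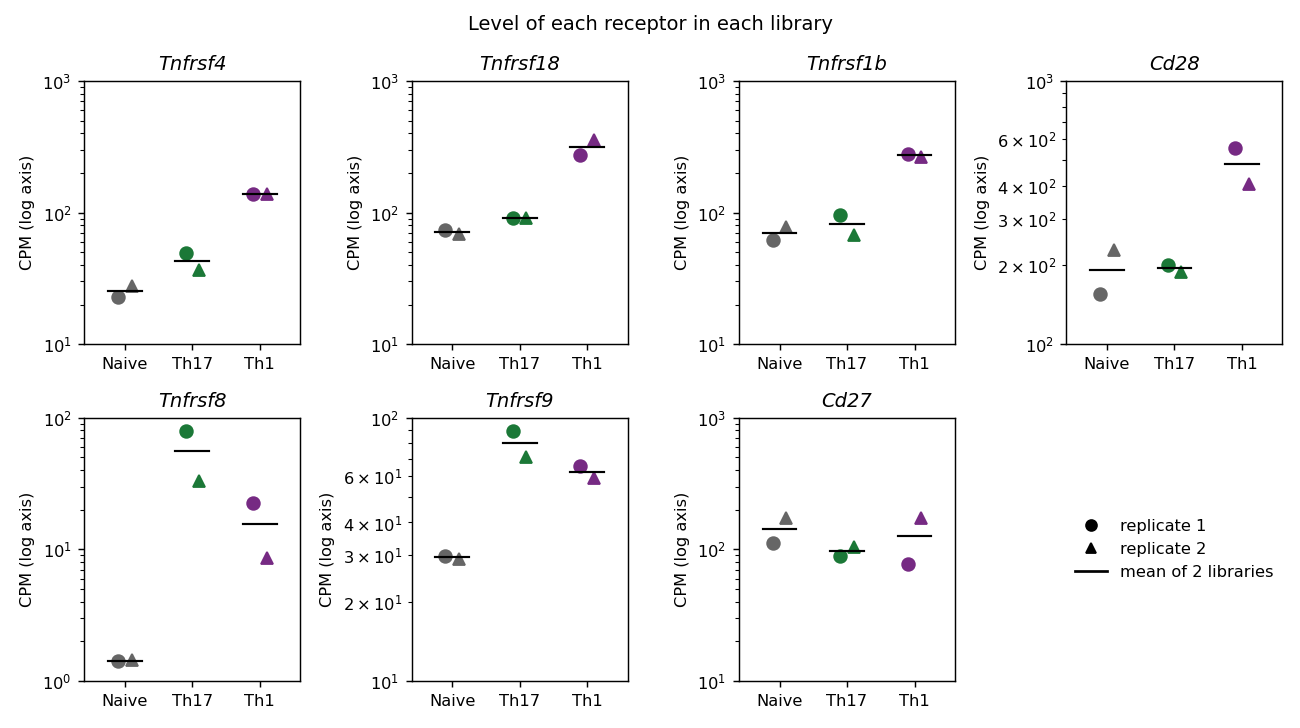
CPM (log axis) of each receptor gene in each of the 6 libraries, with circles for replicate 1, triangles for replicate 2 and a line at the mean. *Tnfrsf4*, *Tnfrsf18*, *Tnfrsf1b* and *Cd28* are highest in both Th1 libraries, *Tnfrsf8* and *Tnfrsf9* in both Th17 libraries, and the libraries of *Cd27* overlap between Naive and Th1.

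Together the 7 genes had 455 and 606 CPM in the Naive libraries, 694 and 591 CPM in Th17, and 1415 and 1406 CPM in Th1. The genes highest in Th1 cells are described before those highest in Th17 cells and *Cd27*. A difference was called where the adjusted p of edgeR's quasi-likelihood test, Benjamini-Hochberg corrected over all 13607 genes, was under 0.01 and the log2 fold change was over 1 in size. By this rule 2 of 7 receptors were higher in Th17 than in Naive cells, where 5.43% of all genes were called, 4.01% higher and 1.43% lower. In Th1 against Naive cells 4 of 7 were higher, with 7.45% of all genes called, 4.64% higher and 2.81% lower. In Th1 against Th17 cells 3 of 7 were higher, with 5.53% called, 2.7% higher and 2.83% lower. No receptor was called lower by edgeR in any of the 3 comparisons, and at an unadjusted p under 0.05 only *Tnfrsf8* was lower, in Th1 than in Th17 cells, which DESeq2 called. The 2 comparisons with Naive cells share the same Naive libraries.

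*Tnfrsf4*, the receptor that prolongs the life of activated CD4 T cells on binding OX40 ligand, was at 23.0 and 27.9 CPM in the Naive libraries, at 49.2 and 36.6 CPM in Th17 and at 139.7 and 137.6 CPM in Th1. Both Th1 libraries lay above all others, and the Th17 libraries lay above the Naive ones without overlap. The level in Th1 cells (138.6 ± 1.52 CPM, SD, n = 2) was 5.46-fold that in Naive cells (25.4 ± 3.47 CPM), a log2 fold change of 2.45 ± 0.28 (SE) with an edgeR adjusted p of 0.000459. Against Th17 cells (42.9 ± 8.92 CPM) it was 3.23-fold, or 1.69 ± 0.27 on the log2 scale (edgeR adjusted p = 0.00343). Th17 and Naive levels were not called different, with a log2 fold change of 0.76 (95% interval 0.16 to 1.35) and an edgeR adjusted p of 0.0788. The call between Th1 and Th17 was lost without Th17 1, Th17 2, Th1 1 or Th1 2, with log2 fold changes of 1.92, 1.503, 1.68 and 1.72 and edgeR adjusted p of 0.0184, 0.0440, 0.0131 and 0.0136, and with library size in place of TMM (1.47, edgeR adjusted p = 0.0130).

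*Tnfrsf18*, which encodes GITR, a receptor known from regulatory T cells that activated T cells also raise, was at 73.6 and 68.7 CPM in Naive, 91.0 and 90.4 CPM in Th17 and 274 and 353.5 CPM in Th1 libraries. The groups did not overlap in any comparison, and the Th1 libraries stood well above the rest. Th1 cells (313.7 ± 56.2 CPM, SD, n = 2) had 4.41-fold the level of Naive cells (71.2 ± 3.50 CPM), with a log2 fold change of 2.14 ± 0.27 (SE, edgeR adjusted p = 0.000767), and 3.46-fold that of Th17 cells (90.7 ± 0.43 CPM), with 1.79 ± 0.27 (edgeR adjusted p = 0.00242). Between Th17 and Naive cells the log2 difference was 0.35 (95% interval -0.23 to 0.93, edgeR adjusted p = 0.365). The Th1 call against Naive cells held without any single library, whereas that against Th17 cells was lost without Th17 1, Th17 2 or Th1 2 (log2 fold changes of 1.79, 1.79 and 1.61, edgeR adjusted p of 0.0266, 0.0254 and 0.0141). The antisense gene *Gm16008* overlaps 414 bases, or 27.2%, of the exons of *Tnfrsf18* and was no row of the table. The study's methods name the default strand setting of the counter while its code names the reverse one, so the share of antisense reads in these counts is uncertain.

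*Tnfrsf1b* encodes TNFR2, the TNF receptor that lacks a death domain and costimulates T cells. It was at 61.7 and 78.1 CPM in Naive, 96.2 and 67.2 CPM in Th17 and 277.8 and 266 CPM in Th1 libraries. The Naive and Th17 libraries overlapped, and both Th1 libraries were far above them. The mean in Th1 cells was 272 ± 8.13 CPM (SD, n = 2), 3.89-fold that in Naive cells (69.9 ± 11.6 CPM), a log2 fold change of 1.96 ± 0.29 (SE, edgeR adjusted p = 0.00183). Against Th17 cells (81.7 ± 20.5 CPM) it was 3.33-fold, or 1.73 ± 0.29 on the log2 scale (edgeR adjusted p = 0.00411). The call against Naive cells was lost without Naive 1 (log2 fold change 1.79, edgeR adjusted p = 0.0154). That against Th17 cells was lost without Th17 1, Th17 2, Th1 1 or Th1 2 (2.01, 1.51, 1.70 and 1.77 on the log2 scale, edgeR adjusted p of 0.0176, 0.0511, 0.0158 and 0.0146) and with library size in place of TMM (1.51, edgeR adjusted p = 0.0149).

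*Cd28*, the receptor that the antibody in both cultures engages, was at 154.5 and 227.8 CPM in Naive, 199.7 and 188 CPM in Th17 and 558 and 407.5 CPM in Th1 libraries. Both Th1 libraries were the highest, and the Th17 libraries lay within the range of the Naive ones. The mean in Th1 cells (482.8 ± 106.5 CPM, SD, n = 2) was 2.53-fold that in Naive cells (191 ± 51.9 CPM), yet the log2 fold change of 1.34 (95% interval 0.65 to 2.02) had an edgeR adjusted p of 0.0157 and was not called. The same held against Th17 cells (194 ± 8.03 CPM), with 1.31 (95% interval 0.63 to 2.00) and an edgeR adjusted p of 0.0194. DESeq2 called both differences, with adjusted p of 0.00041 and 0.00067. Over the 16 alternatives tried, the adjusted p ranged from 0.00041 to 0.0936 against Naive and from 0.00067 to 0.140 against Th17 cells. Between Th17 and Naive cells the log2 difference was 0.02 (95% interval -0.65 to 0.69, edgeR adjusted p = 0.967).

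*Tnfrsf8*, which encodes CD30, a receptor almost absent from resting T cells and induced on activated ones, had the widest range of the 7 genes. It was at 1.41 and 1.44 CPM in the Naive libraries, from 96 and 29 counts, and so above the limit of detection. In Th17 cells it was at 79.8 and 32.8 CPM and in Th1 cells at 22.5 and 8.54 CPM. The groups did not overlap, but the replicates of each culture were far apart, library 1 having 2.43 times the CPM of library 2 in Th17 and 2.63 times in Th1 cells.

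The level of *Tnfrsf8* in Th17 cells (56.3 ± 33.2 CPM, SD, n = 2) was 39.6-fold that in Naive cells (1.42 ± 0.02 CPM), a log2 fold change of 5.31 ± 0.61 (SE, edgeR adjusted p = 0.000619). The rise was called under each of the 16 alternatives, but its size depended on the library, with a log2 fold change of 4.53 without Th17 1 and 5.81 without Th17 2. In Th1 cells (15.5 ± 9.86 CPM) the level was 10.99-fold that in Naive cells, with a log2 fold change of 3.46 ± 0.57 (edgeR adjusted p = 0.00309), a call that was lost without Naive 1 or Naive 2 (3.44 and 3.47 on the log2 scale, edgeR adjusted p of 0.0224 and 0.0107) and with library size in place of TMM (3.24, edgeR adjusted p = 0.0104). Without Th1 1 the log2 fold change fell to 2.63, and without Th1 2 it was 3.99. The lower level in Th1 than in Th17 cells, with a log2 fold change of -1.85 (95% interval -2.99 to -0.71), was not called at an edgeR adjusted p of 0.0371, and over the 16 alternatives the adjusted p ranged from 9.9e-06 to 0.232. Without 1 library this log2 fold change lay between -2.72 (without Th1 1) and -1.08 (without Th17 1). CD30 is also known from other activated blood cells. The 10 mast cell and basophil markers summed to 236 and 458 CPM in Th17 1 and Th17 2, and 9 macrophage and dendritic cell markers to 302 and 942 CPM. The part of such cells in the *Tnfrsf8* levels was not tested. Over the other libraries, these sums were 177 and 55.8 and then 50.0 and 26.0 CPM in Naive, and 87.4 and 70.3 and then 27.5 and 29.6 CPM in Th1.

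*Tnfrsf9* encodes CD137, an inducible receptor that marks recently stimulated T cells. It was at 29.9 and 29.1 CPM in Naive, 88.9 and 71.1 CPM in Th17 and 65.4 and 59.2 CPM in Th1 libraries. No groups overlapped, with Th17 cells highest, Th1 cells close below them and Naive cells lowest. The Th17 level (80.0 ± 12.6 CPM, SD, n = 2) was 2.71-fold the Naive level (29.5 ± 0.52 CPM), a log2 fold change of 1.44 ± 0.26 (SE, edgeR adjusted p = 0.00607). This call was lost without Naive 1, Naive 2, Th17 1 or Th17 2 (1.46, 1.41, 1.28 and 1.59 on the log2 scale, edgeR adjusted p of 0.0271, 0.0299, 0.0490 and 0.0176) and with library size in place of TMM (1.41, edgeR adjusted p = 0.0128). The Th1 level (62.3 ± 4.38 CPM) was 2.11-fold the Naive level and was not called by edgeR (log2 fold change 1.08, 95% interval 0.51 to 1.65, adjusted p = 0.0185). DESeq2 called it (adjusted p = 0.00065), and over the 16 alternatives the adjusted p ranged from 0.00065 to 0.0712. The 2 cultures were not called different, with a log2 difference of -0.36 between Th1 and Th17 (95% interval -0.93 to 0.21, edgeR adjusted p = 0.341).

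*Cd27*, the receptor for CD70, unlike most of the family is carried by naive T cells already. It was at 111 and 173 CPM in Naive, 88.9 and 104.8 CPM in Th17 and 77.7 and 173 CPM in Th1 libraries. Th1 1 was the lowest of all 6 libraries and Th1 2 was level with the higher Naive one. The means were 142 ± 43.7 (SD, n = 2) in Naive, 96.8 ± 11.2 in Th17 and 125 ± 67.6 CPM in Th1 cells, and no difference was called. The log2 difference was -0.56 between Th17 and Naive (95% interval -1.41 to 0.30, edgeR adjusted p = 0.333), -0.18 between Th1 and Naive (-1.04 to 0.67, edgeR adjusted p = 0.800) and 0.37 between Th1 and Th17 (-0.48 to 1.23, edgeR adjusted p = 0.517). These intervals leave room for a change of over 1 on the log2 scale in each comparison. The microRNA gene *Mir8113* overlaps 129 bases, or 5.54%, of the *Cd27* exons on the same strand, so that the assignment of reads there to *Cd27* is uncertain.

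**Figure D2:**
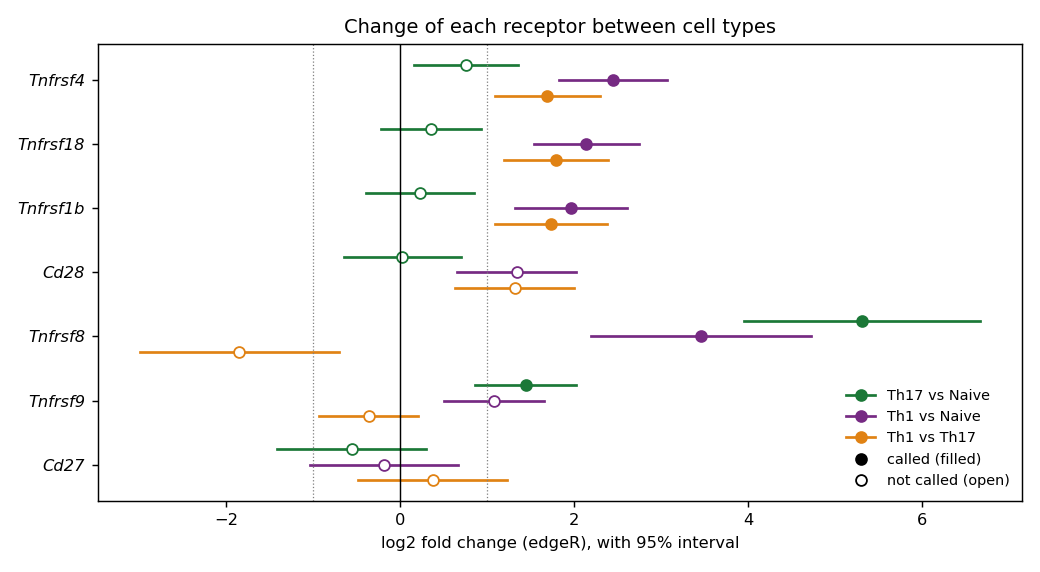
Log2 fold change (horizontal axis) of each receptor gene in the 3 comparisons, with 95% intervals from edgeR as lines, filled points for called differences and dotted lines at -1 and 1. *Tnfrsf4*, *Tnfrsf18* and *Tnfrsf1b* are called in both comparisons that involve Th1 cells, *Tnfrsf8* in both comparisons with Naive cells, and *Cd28* and *Cd27* in none.

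The order of the 3 cell types thus differed between the genes. *Tnfrsf4*, *Tnfrsf18* and *Tnfrsf1b* had Th1 cells above the other two, whose levels were not called different. *Tnfrsf8* had both cultures above Naive cells. The median log2 fold change of the 7 genes was 0.35 in Th17 against Naive, 1.96 in Th1 against Naive and 1.32 in Th1 against Th17 cells, and that of all genes tested was -0.0187, -0.0169 and -0.0272. The libraries of the cell types did not overlap for 5, 6 and 6 of the 7 genes in these comparisons. This count is near the background, since with 2 libraries a group 65.5%, 56.0% and 66.6% of all genes had groups that did not overlap. An exact permutation test of 2 libraries against 2 cannot give a two-sided p under 0.333, so single values rest on the fit across all genes.

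Levels were compared between genes per kb of exon. Per kb, *Tnfrsf18* was the highest of the 7 in 5 of 6 libraries and *Cd27* in Naive 2, and *Tnfrsf8* was the lowest in all 6. In Naive cells *Cd27* (61.2 ± 18.8 CPM per kb, SD, n = 2) and *Tnfrsf18* (46.7 ± 2.30 CPM per kb) led and did not differ beyond the spread, since their order changed between the libraries. *Cd28* followed at 31.2 ± 8.47 CPM per kb, then *Tnfrsf4* (18.6 ± 2.54 CPM per kb) and *Tnfrsf1b* (18.3 ± 3.05 CPM per kb), which also changed order between libraries. *Tnfrsf9* was at 10.8 ± 0.19 and *Tnfrsf8* at 0.41 ± 0.01 CPM per kb.

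In Th17 cells the levels lay closer together. *Tnfrsf18* stood at 59.5 ± 0.28 CPM per kb and *Cd27* at 41.6 ± 4.83, with *Cd28* (31.7 ± 1.31), *Tnfrsf4* (31.4 ± 6.54) and *Tnfrsf9* (29.4 ± 4.62 CPM per kb) overlapping below them. *Tnfrsf1b* was at 21.4 ± 5.38 and *Tnfrsf8* at 16.3 ± 9.61 CPM per kb. In Th1 cells *Tnfrsf18* was at 205.9 ± 36.9 CPM per kb and *Tnfrsf4* at 101.6 ± 1.11, which lay above *Cd28* (78.9 ± 17.4), *Tnfrsf1b* (71.2 ± 2.13) and *Cd27* (53.9 ± 29.0 CPM per kb) in both libraries, while these last overlapped. *Tnfrsf9* was at 22.9 ± 1.61 and *Tnfrsf8* at 4.48 ± 2.85 CPM per kb.

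**Figure D3:**
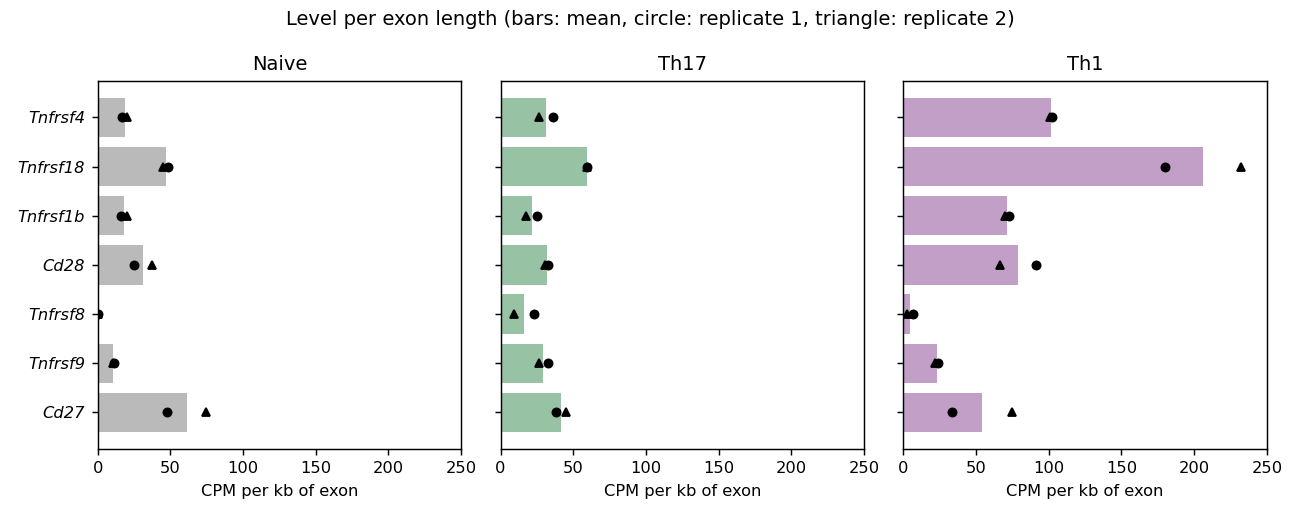
CPM per kb of exon (horizontal axis) of each receptor gene in Naive, Th17 and Th1 cells, with bars for the mean of 2 libraries and a circle and a triangle for replicates 1 and 2. *Tnfrsf18* reaches 205.9 CPM per kb in Th1 cells, and *Tnfrsf8* has the shortest bar in each cell type.

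The genes around both chromosome 4 pairs were read in the same way. Next to *Tnfrsf4*, *Sdf4*, a calcium-binding protein of the Golgi, was at 255 and 262.7 CPM in Naive, 376 and 498 CPM in Th17 and 562 and 847.5 CPM in Th1 libraries, with no overlap between Th1 and Naive. Its log2 fold change of 1.44 ± 0.32 (SE) in Th1 against Naive cells had an edgeR adjusted p of 0.0126 and was not called. *B3galt6*, *9430015G10Rik* and *Rnf223* were not called by edgeR in Th1 against Naive or in Th17 against Naive cells.

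On the low-coordinate side of *Tnfrsf1b*, *Dhrs3*, a retinaldehyde reductase, lies at -321 kb by lowest coordinates. *Dhrs3* was at 6.86 and 5.10 CPM in Naive, 7.82 and 6.85 CPM in Th17 and 1.25 and 1.14 CPM in Th1 libraries. It was called lower in Th1 than in Naive cells, by a log2 fold change of -2.31 ± 0.43 (SE, edgeR adjusted p = 0.00575), and lower than in Th17 cells by -2.61 ± 0.44 (edgeR adjusted p = 0.00434). The former call was lost without any library but Naive 2 (-2.35 to -2.09, edgeR adjusted p of 0.0115 to 0.0302), and the latter without Th17 1, Th17 2, Th1 1 or Th1 2 (-2.69 to -2.51, edgeR adjusted p of 0.0196 to 0.0307). *Vps13d*, between *Dhrs3* and *Tnfrsf1b*, had log2 fold changes of -1.16 in Th17 and -0.81 in Th1 against Naive cells (edgeR adjusted p of 0.0315 and 0.0985) and was not called. On the far side of *Tnfrsf8*, *Gm13212*, at 372 kb from *Tnfrsf1b* by lowest coordinates, was not called by edgeR. Of the other neighbours of both pairs, *Ttll10* and *Gm438* had too few counts to be tested. *C1qtnf12*, *Zfp990* and *Zfp980* were not among the 24223 genes.

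**Figure D4:**
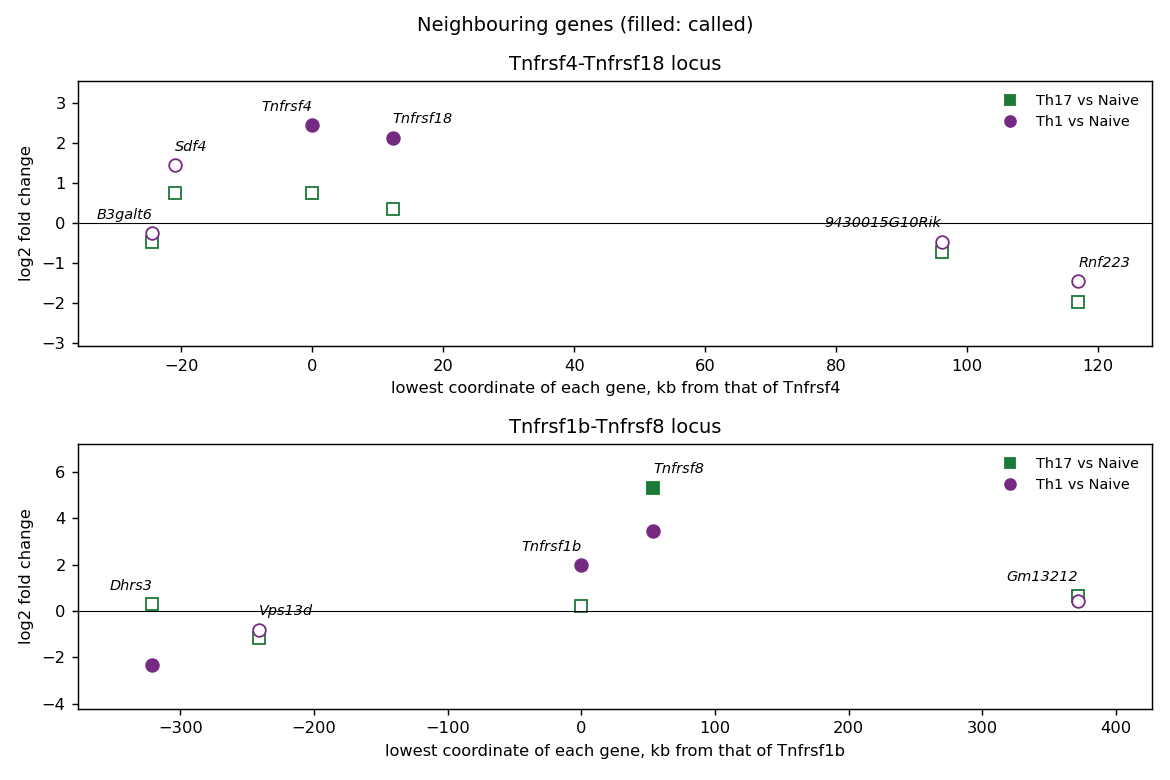
Log2 fold change of the tested genes around both chromosome 4 pairs, by distance in kb from the lowest coordinate of *Tnfrsf4* (top) or *Tnfrsf1b* (bottom), with squares for Th17 against Naive, circles for Th1 against Naive and filled symbols for called differences. In Th1 cells *Tnfrsf4*, *Tnfrsf18*, *Tnfrsf1b* and *Tnfrsf8* are called higher and *Dhrs3* lower.

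The other TNF receptors numbered 22, of which 19 could be tested. In Th17 against Naive cells 3 were called higher and none lower, and DESeq2 called 5 higher and none lower (2 lower at an unadjusted p under 0.05). *Tnfrsf11b*, the secreted decoy receptor osteoprotegerin, was at 5.72 and 7.58 CPM in Th17 and at 3 and 0 counts in Naive libraries, and its mean in Th17 was at least 69.1-fold higher than the mean limit of detection (3 counts per library) in Naive cells. *Cd40*, known from B cells and antigen-presenting cells, was at 5.95 and 6.45 CPM in Th17 and at 0.10 and 0.10 CPM in Naive libraries. Its log2 fold change was 5.89 ± 0.91 (SE, edgeR adjusted p = 0.00269). The Naive values came from 7 and 2 counts, the second under the limit of detection, so the size of this change is uncertain. *Fas*, a death receptor, rose from 23.0 and 22.7 to 58.1 and 80.2 CPM (1.60 ± 0.30, edgeR adjusted p = 0.00702). The call of *Cd40* was lost without Naive 1 or Th17 1 (5.92 to 5.95 on the log2 scale, edgeR adjusted p of 0.0157 and 0.0193) and that of *Fas* without Naive 1, Naive 2, Th17 1 or Th17 2 (1.35 to 1.82, edgeR adjusted p of 0.0164 to 0.0635).

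In Th1 against Naive cells 3 of these 19 receptors were called higher and 1 lower. *Tnfrsf11a*, the receptor RANK, was at 0.16 and 0.10 CPM in Naive libraries against 3.51 and 3.60 CPM in Th1 ones. Its log2 fold change was 4.64 ± 0.64 (SE, edgeR adjusted p = 0.00133). The Naive values came from 11 and 2 counts, the second under the limit of detection. *Tnfrsf23*, a decoy receptor for TRAIL, rose by 3.47 ± 0.49 (edgeR adjusted p = 0.00154) and *Tnfrsf10b*, a death receptor for TRAIL, by 1.96 ± 0.37 (edgeR adjusted p = 0.00613). *Ltbr*, the lymphotoxin beta receptor, which lymphocytes largely lack, was at 22 and 2 counts in Th1 libraries, the second under the limit of detection. It fell from 7.15 and 2.48 to 0.34 and 0.13 CPM (-4.18 ± 0.69, edgeR adjusted p = 0.00316). The direction of the called genes in this list was therefore mixed in Th1 cells. The call of *Tnfrsf10b* was lost without any single library of the 6 (1.75 to 2.18 on the log2 scale, edgeR adjusted p of 0.0108 to 0.0339) and that of *Ltbr* without Naive 1, Th1 1 or Th1 2 (-5.18 to -3.21, edgeR adjusted p of 0.0104 to 0.0135). In Th1 against Th17 cells none was called higher by edgeR, with 4 at an unadjusted p under 0.05 and 2 by DESeq2. *Tnfrsf11b*, *Cd40* and *Ltbr* were called lower (-4.88, -4.73 and -4.38 on the log2 scale). The size is uncertain for *Cd40*, at 23 and 0 counts in Th1 libraries, with a range of -10.89 to -4.1 without 1 library. Each of these 3 calls was lost without Th17 1 or Th17 2, that of *Tnfrsf11b* also without Th1 1 and that of *Ltbr* without Th1 2, with edgeR adjusted p of 0.0108 to 0.0286.

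Of 10 genes for ligands of these receptors and of CD28 relatives, 9 could be tested. In Th1 against Naive cells 3 were called higher, and none was lower by edgeR, by DESeq2 or at an unadjusted p under 0.05. *Tnfsf4*, the OX40 ligand, was at 0.69 and 0.89 CPM in Naive, 2.89 and 2.72 CPM in Th17 and 18.9 and 46.9 CPM in Th1 libraries, so that the transcript of the OX40 ligand, like that of its receptor *Tnfrsf4*, was highest in both Th1 libraries. Its log2 fold change was 5.40 ± 0.54 (SE, edgeR adjusted p = 0.000237) against Naive and 3.54 ± 0.48 (edgeR adjusted p = 0.00155) against Th17 cells. The latter call was the only 1 by edgeR in this list between the cultures, where DESeq2 called 2, and was lost without Th17 1 or Th17 2 (3.51 to 3.59 on the log2 scale, edgeR adjusted p of 0.0126 to 0.0186). *Icosl*, the ligand of ICOS, was at 4.24 and 5.64 CPM in Naive libraries against 26.0 and 17.1 CPM in Th1 ones (2.13 ± 0.39, edgeR adjusted p = 0.00526), a call that was lost without Naive 1, Naive 2, Th17 1 or Th1 1 (1.83 to 2.35, edgeR adjusted p of 0.0103 to 0.0321).

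*Tnfsf8*, the CD30 ligand, was at 18.2 and 26.9 CPM in Naive, 86.8 and 101.4 CPM in Th17 and 60 and 67.9 CPM in Th1 libraries. Both cultures lay above Naive cells, with log2 fold changes of 2.06 ± 0.29 (SE, edgeR adjusted p = 0.00171) in Th17 and 1.504 ± 0.285 (edgeR adjusted p = 0.00621) in Th1 cells, and Th17 libraries were the highest, as they were for the receptor *Tnfrsf8*. The second ligand called higher in Th17 cells was *Cd80*, which binds CD28 and is known from antigen-presenting cells, at 0.57 and 0.79 CPM in Naive against 5.004 and 4.24 CPM in Th17 libraries (2.79 ± 0.52, edgeR adjusted p = 0.00756). The calls of *Tnfsf8* were lost without Naive 1 in Th17 (1.80 on the log2 scale, edgeR adjusted p = 0.0108) and without Naive 1, Th17 1, Th1 1 or Th1 2 in Th1 cells (1.24 to 1.63, edgeR adjusted p of 0.0140 to 0.0422), and that of *Cd80* without Naive 1, Naive 2, Th17 1 or Th17 2 (2.54 to 3.001, edgeR adjusted p of 0.0178 to 0.0468). *Tnfsf18*, the GITR ligand, was too low to be tested, and *Tnfsf9*, *Tnf*, *Lta*, *Cd70* and *Cd86* were not called by edgeR. Of the whole list, DESeq2 called 5 ligands higher in Th17 and 6 in Th1 than in Naive cells.

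*Icos* and *Ctla4*, of the 4 relatives of *Cd28* examined, were called higher in both cultures. *Ctla4*, whose product competes with CD28 for its ligands, was at 28.7 and 38.8 CPM in Naive, 201 and 292 CPM in Th17 and 204 and 293 CPM in Th1 libraries. Its log2 fold change was 2.87 ± 0.34 (SE, edgeR adjusted p = 0.000673) in Th17 and 2.88 ± 0.34 (edgeR adjusted p = 0.000508) in Th1 cells. *Icos*, an inducible costimulator, was at 56.0 and 70.6 CPM in Naive, 262 and 214 CPM in Th17 and 451 and 330 CPM in Th1 libraries, with 1.91 ± 0.30 (edgeR adjusted p = 0.0028) and 2.63 ± 0.30 (edgeR adjusted p = 0.000508). The Th17 call of *Icos* was lost without Naive 1 or Th17 1 (1.75 and 1.76, edgeR adjusted p of 0.0204 and 0.0210). *Pdcd1* and *Btla*, which encode inhibitory receptors, were not called, and none of the 4 was called between Th1 and Th17 cells by edgeR or DESeq2, with 1 higher in Th1 cells at an unadjusted p under 0.05.

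Downstream of the receptors edgeR called few genes and DESeq2 more. Of 14 genes for TRAF adaptors and their partners, *Traf1* alone was called by edgeR in any comparison, higher in Th1 than in Naive cells, at 62.1 and 82.3 CPM in Naive libraries against 164 and 197 CPM in Th1 ones (log2 fold change 1.32 ± 0.27, SE, edgeR adjusted p = 0.00887), a call that was lost without any single library of the 6 (1.12 to 1.53 on the log2 scale, edgeR adjusted p of 0.0137 to 0.0617). Of 14 NF-kB pathway genes, *Bcl3*, a nuclear partner of NF-kB, was called in both cultures, at 23.3 and 32.8 CPM in Naive, 172 and 109 CPM in Th17 and 93.3 and 190.3 CPM in Th1 libraries. Its log2 fold changes were 2.33 ± 0.40 (edgeR adjusted p = 0.00448) and 2.34 ± 0.40 (edgeR adjusted p = 0.00361). The calls of *Bcl3* were lost without Naive 1 in either culture (edgeR adjusted p of 0.0275 at most in Th1 and 0.0295 in Th17), without Th17 1 in Th17 and without Th1 2 in Th1 cells, with log2 fold changes of 1.74 to 2.11. The median log2 fold change of the NF-kB list was 0.05 in Th17 and 0.54 in Th1 against Naive cells. DESeq2 called 2 genes of this list in each culture.

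Among 20 genes of CD28 signalling, none was called between Th1 and Naive cells by edgeR, while 4 were higher at an unadjusted p under 0.05 and 2 by DESeq2. *Nfatc1*, a transcription factor activated by calcium, was called lower in Th17 than in Naive cells, at 137.5 and 224.8 CPM in Naive libraries against 68.5 and 45.5 CPM in Th17 ones (log2 fold change -1.67 ± 0.33, SE, edgeR adjusted p = 0.00976), a call that was lost without Naive 2, Th17 1, Th17 2, Th1 1 or Th1 2 (-1.99 to -1.28, edgeR adjusted p of 0.0120 to 0.0909). Between the cultures, *Fyn*, a kinase of the Src family, and *Nfatc1* were higher in Th1 cells (2.02 ± 0.32 and 1.77 ± 0.33, edgeR adjusted p of 0.00342 and 0.00751). Both calls were lost without Th17 1, Th17 2 or Th1 2, and that of *Nfatc1* also without Th1 1, with edgeR adjusted p of 0.0171 to 0.0742. DESeq2 called 4 of the 20 lower in Th17 than in Naive cells, against 1 by edgeR, and 6 higher in Th1 than in Th17 cells, against 2 by edgeR. The median log2 fold change of the list was -0.29 in Th17 against Naive, 0.13 in Th1 against Naive and 0.41 in Th1 against Th17 cells.

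Genes of cell survival and death, some of which these receptors are known to raise through NF-kB, numbered 9. *Bcl2l11*, which encodes the death-promoting protein BIM, was at 49.5 and 65.0 CPM in Naive, 52.2 and 37.2 CPM in Th17 and 366 and 333 CPM in Th1 libraries. It was higher in Th1 than in Naive cells (log2 fold change 2.61 ± 0.30, SE, edgeR adjusted p = 0.000472) and than in Th17 cells (2.96 ± 0.30, edgeR adjusted p = 0.000418). *Bcl2a1d*, a copy of the A1 gene, was at 8.64 and 8.07 CPM in Naive, 30.7 and 54.5 CPM in Th17 and 4.16 and 1.90 CPM in Th1 libraries, higher in Th17 than in Naive cells (2.35 ± 0.43, edgeR adjusted p = 0.007). *Bcl2a1a* was also called higher in Th17 than in Naive cells, and *Bcl2a1a*, *Bcl2a1b* and *Bcl2a1d* lower in Th1 than in Th17 cells. Without Naive 1, Naive 2, Th17 1 or Th17 2 the *Bcl2a1d* call against Naive cells was lost (1.88 to 2.71, edgeR adjusted p of 0.0124 to 0.0643). Between the cultures the calls of *Bcl2a1a* and *Bcl2a1b* were lost without Th17 2 or Th1 2, and that of *Bcl2a1a* without Th1 1 (edgeR adjusted p of 0.0126 to 0.0218). These copies are nearly identical, so the split of reads between them is uncertain. They are also known from neutrophils, of whose 9 markers 7 were called higher, and *Mpo* lower, in Th17 than in Naive cells, and the part of such cells in the changes was not tested. *Bcl2*, *Bcl2l1*, *Mcl1*, *Birc5* and *Cflar* were not called by edgeR. Of the whole list, DESeq2 called 3 genes higher in each comparison, against 2, 1 and 1 by edgeR in Th17 against Naive, Th1 against Naive and Th1 against Th17 cells.

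**Figure D5:**
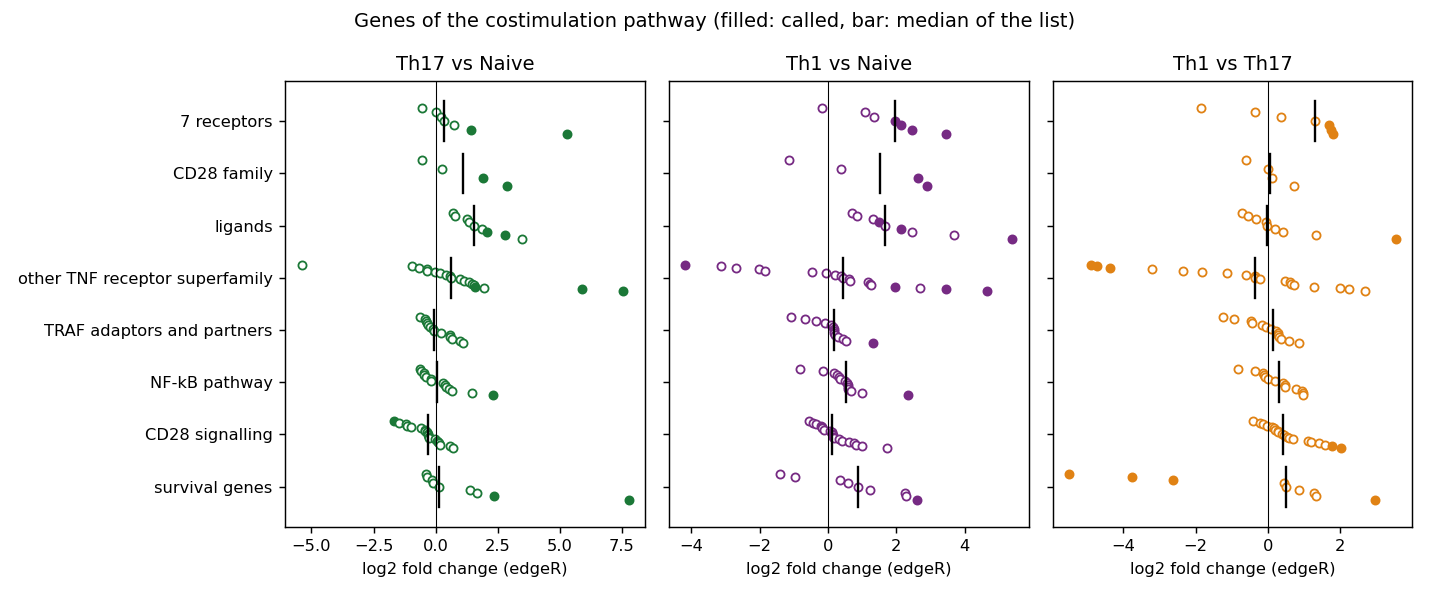
Log2 fold change (horizontal axis) of each tested gene of 8 lists in the 3 comparisons, with filled points for called genes and a bar at the median of the list. The 7 receptors have medians of 0.35, 1.96 and 1.32, and few genes of the TRAF, NF-kB and CD28 signalling lists are called by edgeR.

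Regulatory T cells are known to carry GITR, OX40 and TNFR2, so their markers were read beside the receptors. The 8 markers summed to 437 and 582 CPM in Naive, 227 and 238 CPM in Th17 and 148 and 241 CPM in Th1 libraries. In Th1 against Naive cells 4 of 8 were called lower and none higher (1 at an unadjusted p under 0.05, none by DESeq2). In Th17 against Naive cells edgeR called 1 lower and none higher, while DESeq2 called 3 lower and 1 higher. Between the cultures edgeR called 2 lower in Th1 than in Th17 cells and none higher, and DESeq2 called 2 lower and 1 higher. *Foxp3*, the defining factor of these cells, was at 39.2 and 69.9 CPM in Naive, 19.2 and 12.7 CPM in Th17 and 6.95 and 13.2 CPM in Th1 libraries. *Lrrc32*, another of the 8, was at 20.0 and 39.0 CPM in Naive libraries, 19.3 and 10.6 CPM in Th17 and 41.9 and 75.5 CPM in Th1. The part of regulatory T cells in the receptor levels was not tested.

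Of 7 markers of activated T cells, *Il2ra*, the alpha chain of the IL-2 receptor, was called in both cultures. It was at 42.3 and 71.8 CPM in Naive, 493 and 302 CPM in Th17 and 1035 and 831 CPM in Th1 libraries (log2 fold changes of 2.80 ± 0.38 and 4.03 ± 0.41, SE, edgeR adjusted p of 0.00146 and 0.000256). *Mki67*, a marker of dividing cells, was at 852.5 CPM in Th1 1 and 181 CPM in Th1 2, and at 82.3 to 155 CPM in the other libraries. The 7 markers did not rise as a whole in Th17 cells. Against Naive cells 4 had a positive log2 fold change in Th17 (median 0.06) and 6 in Th1 cells (median 0.66), and edgeR called 1 in each culture. Between the cultures edgeR called 1 of the 7 higher in Th1 cells and none lower. DESeq2 called 1 higher in Th17 than in Naive cells, 3 higher in Th1 than in Naive and 3 higher in Th1 than in Th17 cells, and none lower. At an unadjusted p under 0.05 in edgeR, 1 was higher and 1 lower in Th17 than in Naive cells. By that measure 3 were higher in Th1 than in Naive cells and 3 higher than in Th17 cells.

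Among 8834 genes with a mean of at least 10 CPM, those whose log2 CPM followed each receptor most closely over the 6 libraries were listed by Pearson's r, as a description, since the points share cell types and libraries. *Tnfrsf4* was followed by *Sytl3* (r = 0.998), *Slc2a1* (0.996), a glucose transporter, and *Furin* (0.995), a protease. *Tnfrsf18* was followed by *Tmevpg1* (r = 0.9995), a non-coding RNA next to *Ifng*, and by *Picalm* (0.998) and *Rab3d* (0.996). *Tnfrsf1b* was followed by *Cdc25b* (r = 0.997), a cell cycle phosphatase, *Atp2b1* (0.995) and *Atp10a* (0.994), and *Cd28* by *Dnajc21*, *Sesn3* and *Wdr44* (r = 0.992 for each).

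The pair with Th17 cells highest had other followers. *Tnfrsf8* was followed by *Mdfic* (r = 0.996) and *Zdhhc24* (0.993), and *Tnfrsf9* by *Atf6* (0.996), a sensor of endoplasmic reticulum stress, *Adam8* (0.992) and *Pdgfb* (0.990). *Cd27* was followed by *Arhgap9* (r = 0.982), *Gm11346* (0.971) and *Acp5* (0.969). Among the receptors themselves, r was 0.979 between *Tnfrsf4* and *Tnfrsf1b*, 0.970 between *Tnfrsf4* and *Tnfrsf18* and 0.984 between *Tnfrsf8* and *Tnfrsf9*. Between the adjacent genes *Tnfrsf1b* and *Tnfrsf8* it was 0.267.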

How the data were processed

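RNA-Seq libraries were made by poly(A) capture, Smart-seq2 reverse transcription and TruSeq preparation, and sequenced on an Illumina HiSeq X instrument. The authors aligned reads to mm10 with HISAT2 2.2.1, removed duplicates and counted reads per gene with HTSeq 0.13.5, and the deposited values are raw counts. Groups were taken from the sample labels, with 2 libraries each, stated by the study to be biological replicates. Counts of 24223 genes were filtered with filterByExpr in edgeR 4.0.16 (R 4.3.3), which left 13607, and all 6 libraries were fitted together with TMM factors and cell type as the only term. The quasi-likelihood F-test was used with Benjamini-Hochberg adjustment. SE was the log2 fold change divided by the square root of F. DESeq2 1.42.0 was an alternative. Exon lengths and positions came from GENCODE vM21, promoters from RefSeq, where 6 of the 7 genes matched. *Cd28* is named only. The fit was tested on simulated data.

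The members and gene lists were chosen with earlier results of these data known. Of each list at most 4 genes per comparison were named, those called with the largest change. *Dhrs3*, *Il2ra* and *Mki67* and the genes listed as not called were named for context. Of the 3 genes most like each receptor, 1 is not reported here. Replicates of a group differed by more than counting error (Pearson's r of log2 CPM 0.970 to 0.978). Limits of detection from counts cover counting error only. The intervals of log2 fold changes came from the edgeR quasi-likelihood fit, which also takes in the spread between replicates.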

Additional observations from a re-analysis of the deposited data

How the results depend on the processing

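Over the changes of the 7 receptors, 18 of 54 re-tests of called changes without 1 library lost the call, and 4 of 90 under other settings did, while 17 of 120 uncalled changes became called under other settings. With library size in place of TMM, 1, 3 and 1 receptors were called in Th17 against Naive, Th1 against Naive and Th1 against Th17, and this scaling moved the median of all genes to -0.263 in Th1 against Naive and -0.242 in Th1 against Th17. In Th1 against Th17, 5 receptors were called by DESeq2, without a filter on low counts and at an adjusted p under 0.05. Without 1 library, 1 to 2, 2 to 4 and 0 to 3 receptors were called, the lone library being taken to vary like the others.

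Of all genes, 739, 1014 and 752 were called. DESeq2 called 1738, 1928 and 1824, no filter 2154, 2259 and 2232, at least 10 counts in every library 343, 674 and 411, and an adjusted p under 0.05 2063, 2164 and 2112. Leaving out 1 library gave 319 to 885, 516 to 939 and 266 to 1016. The labels do not say that the replicate numbers pair samples, and the correlations of same-numbered deviations were -0.231 (Naive and Th17), 0.168 (Naive and Th1) and 0.0766 (Th17 and Th1). With the replicate number as a block, edgeR called 2, 4 and 4 receptors and 1035, 1402 and 1041 genes, and DESeq2 called 2, 6 and 5 receptors and 1517, 1796 and 1635 genes. The cause of these differences was not tested.

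Directions turned for changes near 0. *Cd27* in Th1 against Naive became 0.17 without Naive 2 and 0.32 without Th1 1, in a range of -0.87 to 0.32, and in Th1 against Th17 -0.31 without Th1 2, in a range of -0.31 to 0.83. *Cd28* in Th17 against Naive became -0.015 with library size alone, -0.23 without Naive 1 and -0.0137 without Th17 1 (range -0.23 to 0.32), and *Tnfrsf1b* -0.049 without Th17 1 (range -0.049 to 0.46). Of 38 calls of other genes re-tested, 13 held without each library. Library size in place of TMM ended those of *Bcl2a1d* and *Cd80* (Th17 against Naive), *Bcl3*, *Icosl*, *Tnfrsf10b*, *Tnfsf8* and *Traf1* (Th1 against Naive) and both of *Nfatc1*. A fit of only the 4 libraries compared ended those of *Dhrs3*, *Tnfrsf10b*, *Tnfsf8* and *Traf1* in Th1 against Naive, and at least 10 counts in every library ended those of *Nfatc1* and *Traf1*. With a minimum mean of 1 CPM, *Tnfrsf4* and *Tnfrsf9* shared 1 of 3 most similar genes with those named. Libraries numbered 2 were shallower than those numbered 1, and 2 libraries a group limit every test.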
